A study of Mus musculus with 5 samples.

Results

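The loci of 6 transcription factors of the pluripotency network, Sox2, Esrrb, Nanog, Zfp42, Pou5f1 and Klf4, were followed by DNA methylation in mouse embryonic stem (ES) cells, with 5 libraries. Each locus was a fixed range of the mouse build mm9, given as chr3:34542000-34556000 for Sox2, chr12:87698000-87870000 for Esrrb, chr6:122652000-122668000 for Nanog, chr8:44376000-44396000 for Zfp42, chr17:35638000-35650000 for Pou5f1 and chr4:55536000-55550000 for Klf4. Every CpG listed within these ranges was taken, with no use of its level. This gave 475 CpGs, of 1097424 CpGs listed on the autosomes and the X chromosome in at least 1 library. Of the 475, 115 lay at Sox2, 158 at Esrrb, 8 at Nanog, 29 at Zfp42, 25 at Pou5f1 and 140 at Klf4.

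The assay was reduced representation bisulfite sequencing (RRBS), which reads short, CpG-rich fragments released by the enzyme MspI at CCGG and scores methylation as the share of reads that still show C after bisulfite treatment. There was 1 library for each of the genotypes Fbxl10 T/T, Ring1B -/-, Eed -/-, Ezh2 -/- and WT. FBXL10, also called KDM2B, binds unmethylated CpG-rich DNA through a zinc finger domain and brings a form of Polycomb repressive complex 1 there. Ring1B is the enzyme of that complex that attaches ubiquitin to histone H2A, while Eed is a subunit that Polycomb repressive complex 2 needs to methylate histone H3. Ezh2 is the main enzyme of that second complex in ES cells, and Ezh1 can replace it in part. The Fbxl10 T/T and WT cells are labelled C57BL/6J, were kept in serum and LIF on embryonic fibroblast feeders that were removed by plating, and were taken at passage 17. For the Ring1B -/-, Eed -/- and Ezh2 -/- cells the labels give serum and LIF, but no strain, feeder layer or passage. The T allele is not spelled out in the labels, and the number of clones behind a library is not given in the sources used here. Genotype and library cannot be told apart in this design, no difference has a replicate check, and each test below compares the reads of 2 libraries. All 4 mutants were set against the same WT library.

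Pou5f1 (Oct4), Sox2 and Nanog form the core of the circuit that keeps ES cells undifferentiated, and Klf4, Esrrb and Zfp42 (Rex1) are linked to its naive state. Promoters rich in CpG are as a rule free of methylation in ES cells, whereas CpG-poor promoters of this network are known to become methylated when the cells differentiate. No expression was measured in these libraries, so a methylation level says nothing here about how active a gene was.

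The stretches of sequence below show the CpGs on which the results turn. They are spelled out by the sequence contexts of the deposited tables, on the + strand of mm9, with each CpG in capitals. The first 6 lines hold, for each locus, an unbroken stretch of at most 30 bases, chosen for the most CpGs higher in Fbxl10 T/T. Where none was higher, it was chosen for tested CpGs. A higher level at a stretch so chosen is part of the choice. The last 2 lines hold longer stretches upstream of the starts of Sox2 and Klf4, at unlike distances. Their tested CpGs lie 1092 to 1034 bases before the start of Sox2 and 271 to 298 before that of Klf4. A stretch of 8 CpGs nearer the Sox2 start is not shown, since none had 10 reads in both libraries.
Sox2: gaggcaaCGccaCGgCGgCGgCGacCGgCG
Esrrb: tcCGgctccccCGcCGCGgcCGCGtcctcc
Nanog: taCGttggccttctagtctgaa
Zfp42: caCGtgcCGcCGgggccCGt
Pou5f1: ttcCGacagcttagCGa
Klf4: ccCGCGCGccCGgagcCGCGctCGctctct
Sox2 upstream: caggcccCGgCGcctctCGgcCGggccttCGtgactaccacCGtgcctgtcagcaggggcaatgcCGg
Klf4 upstream: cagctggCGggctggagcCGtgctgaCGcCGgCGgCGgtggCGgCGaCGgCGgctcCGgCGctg
They lie at chr3:34549408-34549437, chr12:87762707-87762736, chr6:122658107-122658128, chr8:44381217-44381236, chr17:35644207-35644223, chr4:55545305-55545334, chr3:34547818-34547885 and chr4:55545589-55545652. At the Sox2 stretch, 48.7% of reads at CpGs outside CCGG were methylated in Fbxl10 T/T and 3.12% in WT. At the Esrrb stretch the levels were 74.4% in Fbxl10 T/T and 10.7% in WT. At the Klf4 stretch, no less dense in CpG, 2.11% of 284 reads were methylated in Fbxl10 T/T, and 4 of 399 reads in WT. In the upstream pair the 4 tested Sox2 CpGs outside CCGG read 55.7% in Fbxl10 T/T and 1.69% in WT, and the 6 tested Klf4 CpGs read 0% of 330 reads in Fbxl10 T/T and 0.694% of 576 in WT.

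Depth set what could be tested. At the 6 loci, 271 CpGs had at least 10 reads in Fbxl10 T/T, while Ring1B -/- had 4 such CpGs, Eed -/- 9, Ezh2 -/- 6 and WT 313. The median read number over all listed CpGs was 23 in Fbxl10 T/T, 3 in each Polycomb mutant and 33 in WT. Cytosines outside CpG at these loci, a measure of incomplete conversion and of non-CpG methylation together, read as C in 0.127% to 1.42% of reads in Fbxl10 T/T and in 0% to 1.28% in WT. In the Polycomb mutants they reached 4.6%, at Nanog in Eed -/-. CpGs inside CCGG, the cutting site itself, are given apart, since their levels could differ from those outside it. At Sox2 in WT they read 22.3%, against 4.93% outside CCGG. Summed over the whole Zfp42 range in WT they read lower than those outside CCGG, at 48.2% against 55.8%, but not within its parts. From position 44380964 to 44381751 they read 70.5% in WT, against 67.8% outside CCGG. From 44390856 to 44391482 they read 30.9% in WT, against 4.69% at the single CpG outside CCGG. The cause of these differences was not tested.

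Sox2 and Esrrb were more methylated in Fbxl10 T/T than in WT, and Klf4 was not. Outside CCGG, 58 of 158 tested CpGs of the 6 loci rose and 0 fell, where 16.5% of all 368305 CpGs tested rose and 4.34% fell. The rise held 40 of 43 CpGs at Sox2, 16 of 28 at Esrrb, 1 of 1 at Nanog, 1 of 10 at Zfp42, 0 of 6 at Pou5f1 and 0 of 70 at Klf4. The test of a CpG, two-sided by Fisher's exact test, needed 10 reads in each library, and a call needed a difference of 25 percentage points or more beside a Benjamini-Hochberg adjusted p below 0.05 over all CpGs tested. Inside CCGG, 32 of 113 CpGs rose and 5 fell, with 10.1% and 9.82% of all 260282 such CpGs called. There the rises were 17 of 24 CpGs at Sox2, 12 of 42 at Esrrb, 2 of 4 at Nanog, 1 of 13 at Zfp42, 0 of 6 at Pou5f1 and 0 of 24 at Klf4, and all 5 falls were at Esrrb.

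**Figure D1:**
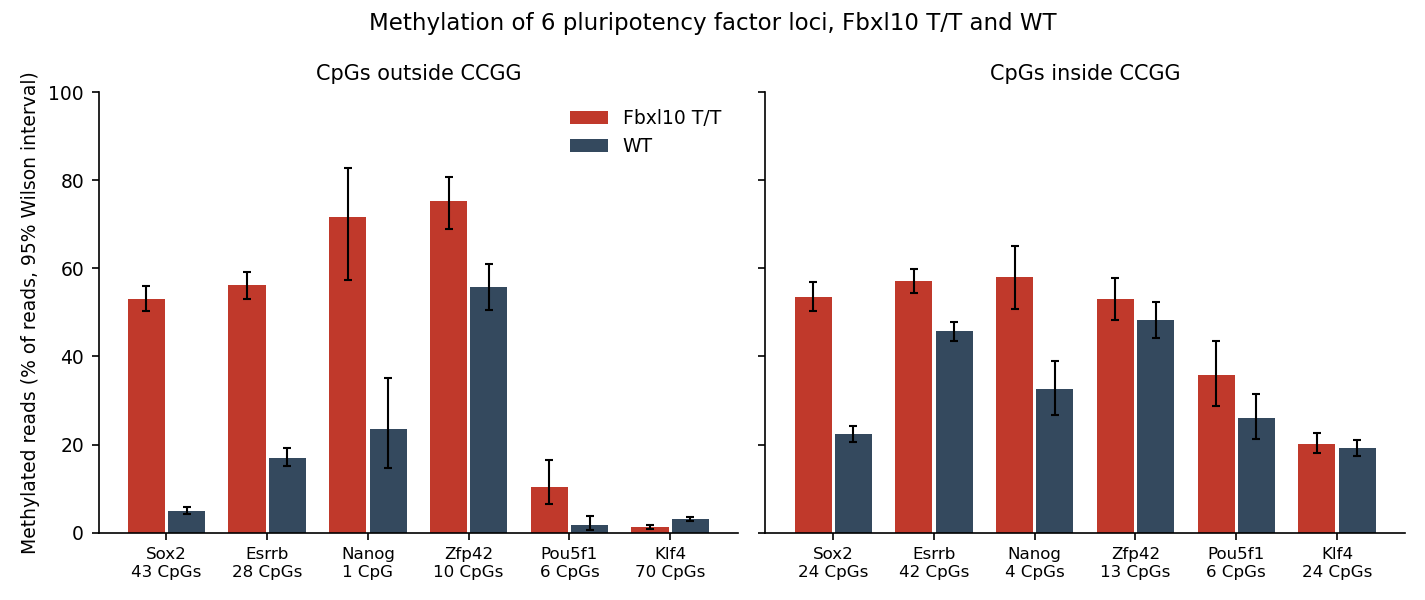
Share of methylated reads (%) at each locus in Fbxl10 T/T and WT, summed over CpGs with at least 10 reads in both libraries, outside CCGG on the left and inside CCGG on the right. Bars are single libraries and error bars are 95% Wilson intervals. Outside CCGG the Sox2 bars stand at 53.1% in Fbxl10 T/T and 4.93% in WT, and the Klf4 bars at 1.33% in Fbxl10 T/T and 3.07% in WT.

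Sox2, which pairs with Oct4 on DNA, gained methylation at nearly all of its tested CpGs. Summed over its 43 tested CpGs outside CCGG, 53.1% of 1137 reads were methylated in Fbxl10 T/T (95% Wilson interval 50.2 to 56.0%), against 4.93% of 2839 in WT (4.19 to 5.79%). These intervals and all others cover counting error only and take neighbouring CpGs as independent, so they are too narrow. In bulk DNA, fewer methylated cells and fewer methylated alleles per cell cannot be told apart. Each of the 43 CpGs read above WT in Fbxl10 T/T, by 4.06 to 70.9 points, with a median of 50 points.

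The gain covered 3 groups of CpGs at Sox2 and was not called at the 4 CpGs tested toward the flanks of the range. The start of Sox2 was placed at position 34548917 by matching 88 bases of its RefSeq promoter (build GRCm38.p6) to the tables. From 1165 to 1034 bases before the start, 10 of 10 CpGs outside CCGG rose, with 63.2% of reads methylated in Fbxl10 T/T and 2.53% in WT. The largest single rise lay there, 1070 bases before the start, with 16 of 22 reads methylated in Fbxl10 T/T and 1 of 55 in WT (adjusted p = 2.25e-09, Fisher's exact test). From 339 to 1331 bases after the start, 28 of 30 CpGs outside CCGG rose, with 48.2% in Fbxl10 T/T and 1.41% in WT. The other 2, at 878 and 892 bases, had 3 of 16 methylated reads each in Fbxl10 T/T and 0 of 51 in WT, and missed the threshold (adjusted p = 0.0509, Fisher's exact test). Inside CCGG, 11 of the 15 tested CpGs of that group rose. Further on, at 3725 to 3755 bases, both CpGs outside CCGG rose, with 54.2% in Fbxl10 T/T and 1.93% in WT.

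Toward the flanks of the range, single CpGs were methylated in WT as well. At 6683 bases after the start, 57.5% of 87 reads were methylated in Fbxl10 T/T and 53.4% of 176 in WT. At 5951 bases before it, a CpG inside CCGG had 8 of 10 methylated reads in Fbxl10 T/T and 16 of 21 in WT. The CpGs inside CCGG at 6671 and 6695 bases after the start had 28 of 87 and 17 of 87 methylated reads in Fbxl10 T/T, against 50 of 176 and 46 of 175 in WT. None of these 4 CpGs was called.

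The stretch right at the start of Sox2 is the least certain part. In the 250 bases before it, 14 CpGs are listed, and none reached 10 reads in Fbxl10 T/T. Over the 8 CpGs outside CCGG with a read in both libraries, 6 of 20 reads were methylated in Fbxl10 T/T (14.5 to 51.9%), against 5 of 126 in WT (1.71 to 8.95%). All 6 methylated reads in Fbxl10 T/T fell on 1 CpG, 71 bases before the start, where it had 7 reads in Fbxl10 T/T and 17 in WT.

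**Figure D2:**
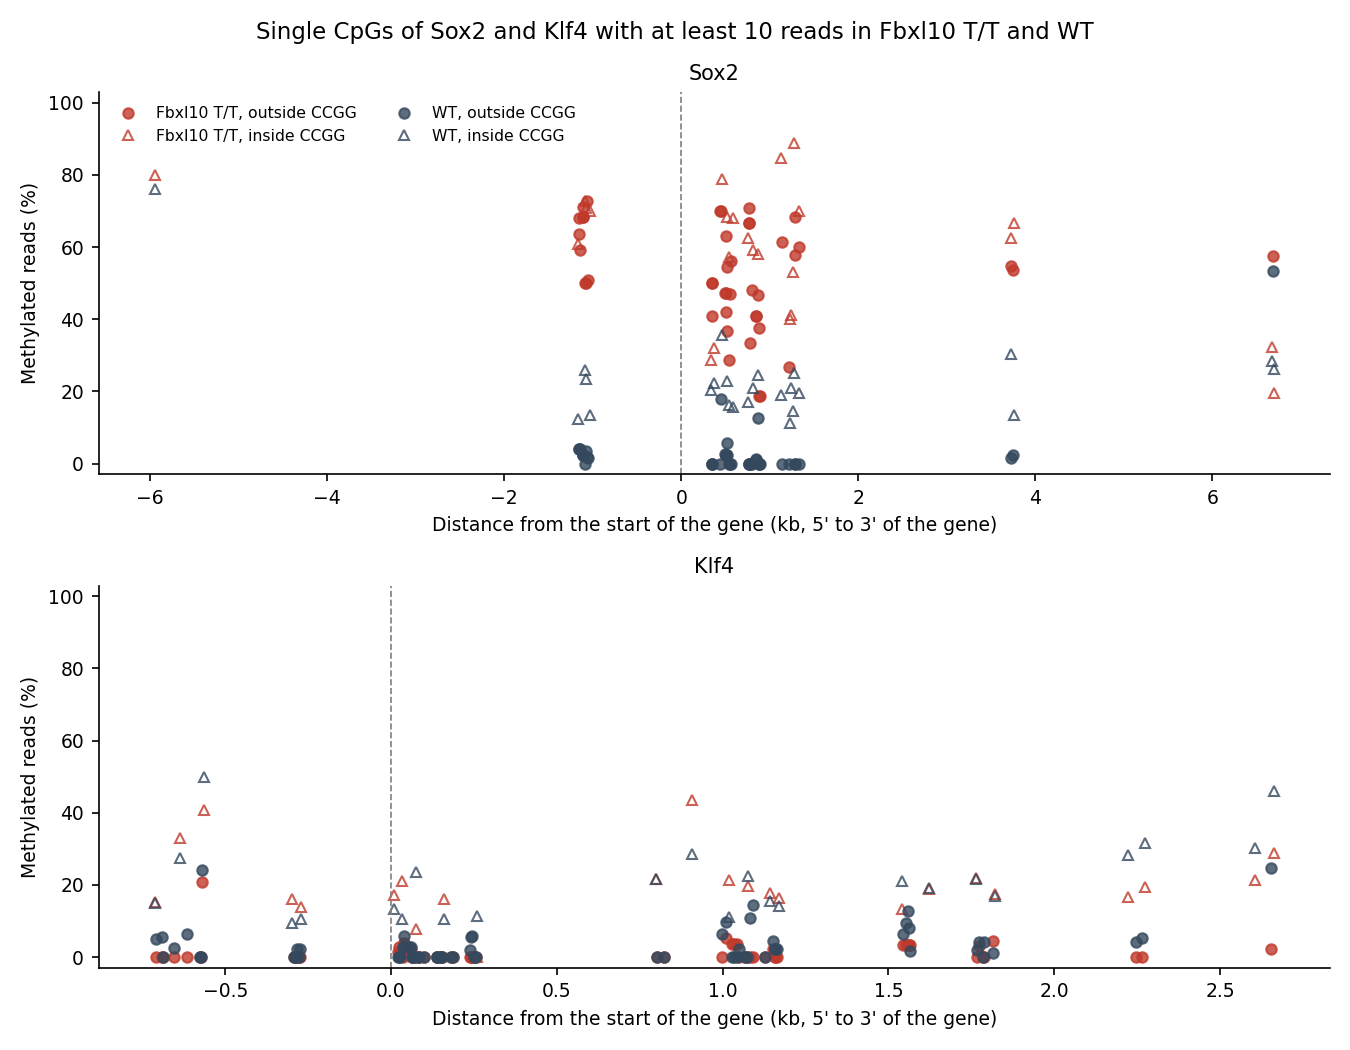
Methylated reads (%) of single CpGs of Sox2 (top) and Klf4 (bottom) by distance from the gene's start in kb, in Fbxl10 T/T and WT. Filled circles are CpGs outside CCGG and open triangles CpGs inside CCGG, each with at least 10 reads in both libraries. At Sox2 the filled Fbxl10 T/T circles around the start lie between 18.8% and 72.7%. At Klf4 all filled circles of both libraries lie under 25%.

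Klf4, a zinc finger factor used in reprogramming, is rich in CpG and read low in both libraries at its tested CpGs outside CCGG. Its RefSeq promoter, from 250 bases before to 50 after the start, holds 40 CpGs, against 27 at Sox2 and a median of 7 over 32851 promoters. Over 70 tested CpGs outside CCGG, 1.33% of 2474 reads were methylated in Fbxl10 T/T (0.951 to 1.87%) and 3.07% of 3912 in WT (2.57 to 3.66%). Only 9 of the 70 CpGs read higher in Fbxl10 T/T, by at most 3.57 points. The start was placed at position 55545347, on the - strand, from 52 matched bases. From 713 bases before it to 260 after it, 40 CpGs read 1.36% in Fbxl10 T/T and 1.87% in WT. None of these lay in the 250 bases before the start, which hold 32 CpGs in RefSeq. No CpG there had a read in both libraries, so that part of the Klf4 promoter was not measured. From 800 to 2662 bases after the start, 30 CpGs read 1.30% in Fbxl10 T/T and 4.29% in WT. A single CpG, 2654 bases after the start, had an adjusted p under 0.05 without reaching 25 points, with 1 of 46 reads methylated in Fbxl10 T/T and 15 of 61 in WT (adjusted p = 0.00532, Fisher's exact test). Inside CCGG, Klf4 read 20.2% in Fbxl10 T/T and 19.2% in WT.

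Esrrb, a nuclear receptor of the naive circuit, gained methylation next to its downstream start. RefSeq lists 2 promoters, which were placed at positions 87702067 and 87762594 from only 15 and 29 matched bases. Their spacing of 60527 bases was the same in mm9 and in GRCm38. From 115 to 1192 bases after the downstream start, all 15 tested CpGs outside CCGG and all 10 inside CCGG rose. The largest rise, 282 bases after that start, had 11 of 12 reads methylated in Fbxl10 T/T and 4 of 22 in WT (adjusted p = 0.000385, Fisher's exact test). The most deeply read of these CpGs, 464 bases after the start, had 72 of 101 methylated reads in Fbxl10 T/T and 11 of 116 in WT (adjusted p = 1.05e-19, Fisher's exact test).

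The gain next to the downstream start of Esrrb had an edge on the side after the start, and single CpGs further off rose too. Before that start, no CpG nearer than 18.6 kb had 10 reads in both libraries, so that side was not measured. From 115 to 2095 bases after that start, 15 of 16 CpGs outside CCGG and 10 of 14 inside CCGG rose. Of the 5 tested CpGs from 1515 to 2095 bases after the downstream start, none was called, and they read between 23.1% and 80.0% in Fbxl10 T/T and between 35.7% and 71.0% in WT. A further group of 5 CpGs outside CCGG, 18.7 kb before that start, read 36.0% in Fbxl10 T/T and 8.87% in WT. Of these, 1 CpG rose, with 24 of 30 methylated reads in Fbxl10 T/T and 9 of 45 in WT (adjusted p = 3.99e-06, Fisher's exact test). Inside CCGG, 1 of 4 CpGs of that group rose. So did 1 of 2 inside CCGG at 51.9 to 52.0 kb after the start, which together read 73.6% in Fbxl10 T/T and 40.7% in WT. At the upstream start itself, a single CpG inside CCGG was tested, with 5 of 11 methylated reads in Fbxl10 T/T and 11 of 15 in WT, and it was not called.

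Falls at Esrrb were called only inside CCGG. Outside CCGG, 23 of 28 tested CpGs read higher in Fbxl10 T/T, with differences from -47.7 to 73.5 points. Groups of 2 CpGs at 34.8 kb and 96.6 kb after the downstream start read lower without a call. Their levels were 59.0% and 40.9% in Fbxl10 T/T, against 76.9% and 62.5% in WT. The called falls were 5 of the 42 CpGs tested inside CCGG. This share was not tested against the 9.82% of all CpGs inside CCGG that fell. These CpGs read 75.0% to 100% in WT. A fall can be called only where WT is methylated, so methylation in WT at these CpGs is part of the rule. The largest fall lay 3666 bases after the downstream start, with 3 of 13 methylated reads in Fbxl10 T/T and 10 of 10 in WT (adjusted p = 0.00237, Fisher's exact test). The most deeply read lay 98.7 kb after it, with 18 of 40 methylated reads in Fbxl10 T/T and 63 of 68 in WT (adjusted p = 8.91e-07, Fisher's exact test). Summed over the locus, reads were methylated at 56.1% in Fbxl10 T/T and 17.1% in WT outside CCGG, and at 57.1% in Fbxl10 T/T and 45.7% in WT inside CCGG.

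**Figure D3:**
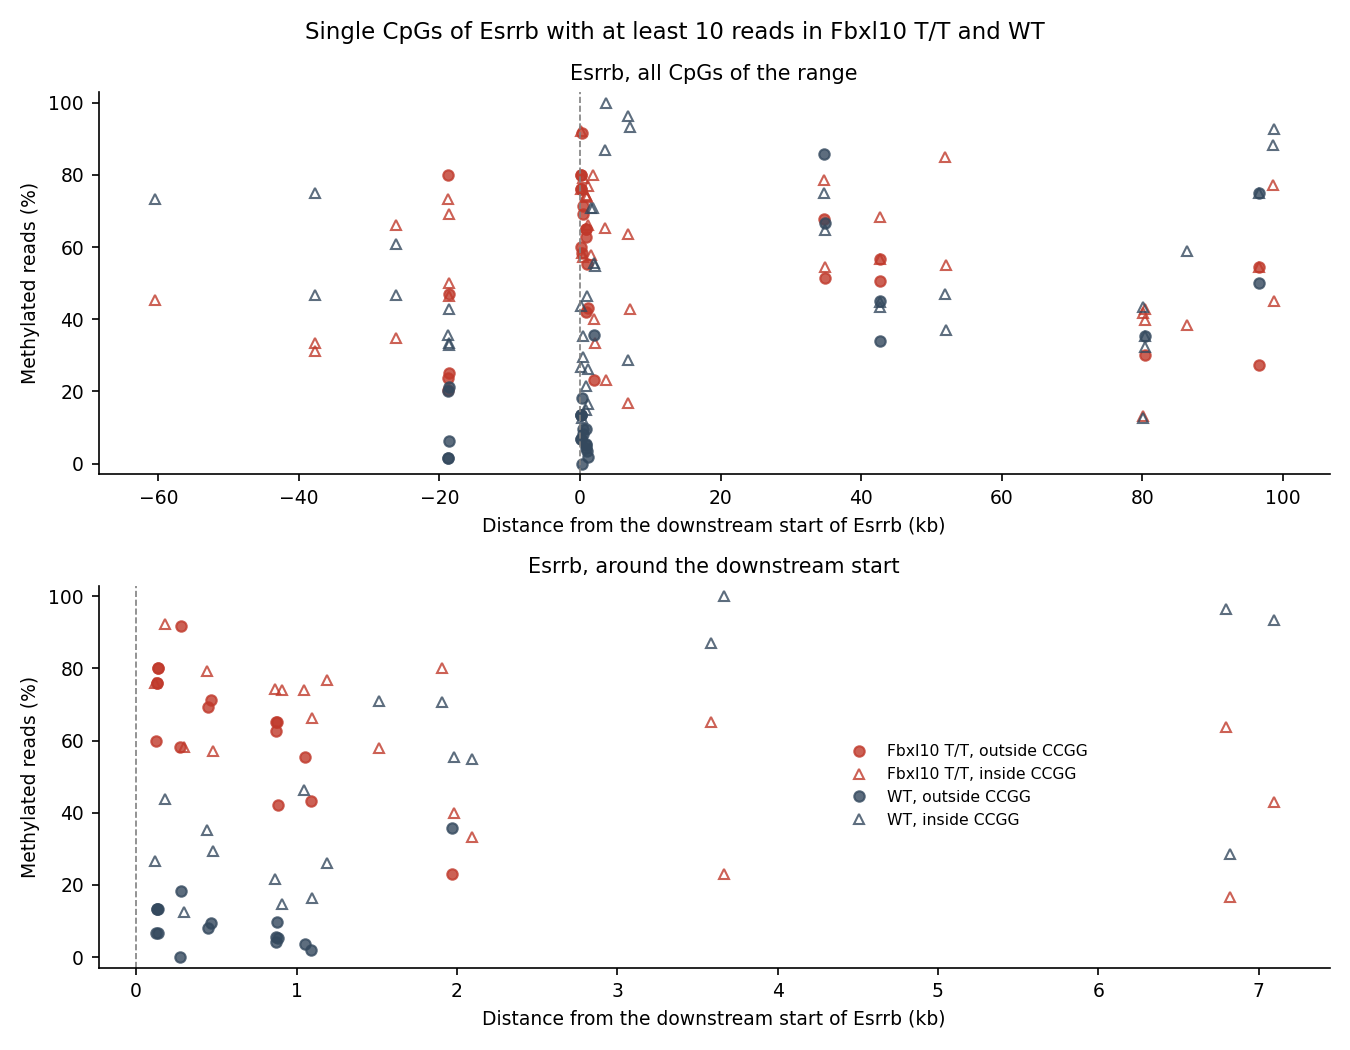
Methylated reads (%) of single CpGs of Esrrb by distance from the downstream start in kb, over the whole range (top) and around that start (bottom), in Fbxl10 T/T and WT. Filled circles are CpGs outside CCGG and open triangles CpGs inside CCGG, each with at least 10 reads in both libraries. Up to 1192 bases after the start each Fbxl10 T/T point stands above its WT point, and from 1515 to 2095 bases 1 of 5 does.

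Nanog, the homeodomain factor of the core circuit, is poor in CpG, and 5 of its 8 listed CpGs were tested. Its 2 RefSeq promoters hold 4 CpGs each and no CCGG, and neither could be placed in mm9, so distances are not given. A group of 3 CpGs at positions 122658101, 122658109 and 122658138 rose together. They had 35 of 46, 33 of 46 and 54 of 67 methylated reads in Fbxl10 T/T, against 23 of 64, 15 of 64 and 20 of 58 in WT. The adjusted p of the middle CpG, the only 1 outside CCGG, was 7.94e-06 (Fisher's exact test). The other 2 CpGs, at 122653024 and 122653085, had 3 of 16 and 13 of 52 methylated reads in Fbxl10 T/T, against 2 of 17 and 26 of 79 in WT, and were not called.

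Zfp42, the zinc finger gene known as Rex1, had a methylated part and a part with low levels. From position 44380964 to 44381751, 9 CpGs outside CCGG read 87.4% in Fbxl10 T/T and 67.8% in WT, with each of the 9 higher in Fbxl10 T/T. Of these 1 rose, with 20 of 24 methylated reads in Fbxl10 T/T and 17 of 38 in WT (adjusted p = 0.0170, Fisher's exact test). The largest rise of the locus, inside CCGG at 44381291, had 34 of 42 methylated reads in Fbxl10 T/T and 22 of 53 in WT (adjusted p = 0.000964, Fisher's exact test). From 44390856 to 44391482 nothing was called, and the single CpG outside CCGG read 3.45% in Fbxl10 T/T and 4.69% in WT. The RefSeq promoter of Zfp42 could not be placed.

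Pou5f1, the gene of Oct4, moved little in absolute terms. Outside CCGG, 15 of 143 reads were methylated in Fbxl10 T/T (10.5%, 6.46 to 16.6%) and 5 of 295 in WT (1.69%, 0.726 to 3.91%). Of 6 tested CpGs, 5 read higher in Fbxl10 T/T, the largest difference being 17.2 points, and none had an adjusted p under 0.05. The nearest was 1233 bases after the start, with 4 of 33 methylated reads in Fbxl10 T/T and 0 of 64 in WT (adjusted p = 0.0513, Fisher's exact test). The start was placed at position 35642977 from 36 matched bases, and the other RefSeq promoter of Pou5f1 could not be placed. Right after the start, a CpG inside CCGG at 44 bases had 9 of 13 methylated reads in Fbxl10 T/T and 19 of 28 in WT, while its neighbour outside CCGG at 49 bases had 0 of 13 in Fbxl10 T/T and 2 of 28 in WT.

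Over 1-kb windows the same loci stood out. A window needed 5 CpGs outside CCGG with 10 reads in each library, and its call a difference in the mean of 20 points or more and an adjusted p below 0.05 by Fisher's exact test on its summed reads. Of 10 windows over the loci, 6 were higher in Fbxl10 T/T and 0 lower, where 25.2% of all 17192 windows were higher and 1.66% lower. Among the 14323 windows under 10% in WT, 20.8% were higher. The 3 Sox2 windows, from positions 34547001, 34549001 and 34550001, read 62.2%, 47.7% and 54.9% in Fbxl10 T/T and 2.61%, 2.03% and 0% in WT. The 3 Esrrb windows, from 87743001, 87762001 and 87763001, read 39.3%, 74.6% and 59.3% in Fbxl10 T/T and 10.1%, 10.2% and 5.94% in WT.

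These gains were large but not extreme for the genome. The Sox2 windows exceeded 84.9% to 93.9% of all tested windows in their difference, and the Esrrb windows 77.7% to 96.8%. The 3 Klf4 windows differed by -2.95, -2.12 and -0.73 points and were not called. The Zfp42 window from 44381001 read 88.2% in Fbxl10 T/T and 69.4% in WT, a difference of 18.8 points that lay under the threshold (adjusted p = 8.51e-06, Fisher's exact test on summed reads).

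Promoters of other genes of the network were read from 1000 bases before to 500 after starts that could be placed in mm9 with at least 60 matched bases. Of 7438 promoter regions tested, 15.2% were higher in Fbxl10 T/T and 0.269% lower. Sox2 was the only member placed by this rule, with 54.7% in Fbxl10 T/T and 3.38% in WT over 6 CpGs (adjusted p = 3.03e-26, Fisher's exact test on summed reads). All 6 lay 346 to 498 bases after the start, so this value holds no CpG before it. With shorter matches allowed, a choice made after the data were seen, 15.8% of 9369 regions were higher and 0.363% lower. Esrrb then read 73.6% in Fbxl10 T/T and 9.91% in WT over 9 CpGs after its downstream start. Klf4 read 0.967% in Fbxl10 T/T and 1.95% in WT over 40 CpGs, none of them in the 250 bases before its start.

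Of a list of 29 naive pluripotency genes, 7 were tested with 8 promoters. In Fbxl10 T/T 1 of the 8 was higher and 0 lower, a share near the 15.2% over all promoters, with a median difference of 0.478 points beside 0.0784 over all promoters. The higher promoter was that of Fgf4, a growth factor gene that Oct4 and Sox2 activate, with 61.6% in Fbxl10 T/T and 2.31% in WT over 11 CpGs. The other 7, of Klf2, Lifr, Sall1, Tet2, Tfcp2l1 and Zfp281, differed by -0.28 to 1.18 points. Of 11 genes of the primed state, 3 were tested, with 2 higher, 0 lower and a median difference of 23.2 points. No list was tested as a set. Otx2, a homeodomain factor of the primed state, read 81.2% in Fbxl10 T/T and 6.56% in WT, and Fgf5, a growth factor marker of that state, read 27.5% in Fbxl10 T/T and 4.31% in WT. The promoter of Dnmt3b, a DNA methyltransferase, read 0.406% in Fbxl10 T/T and 0.677% in WT.

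Fibroblast feeders are the other cell type these cultures could hold. Of 10 feeder marker genes, only Twist2, a mesenchymal transcription factor, had a tested promoter, which was higher, with 59.8% in Fbxl10 T/T and 6.15% in WT. Over the same region 30 of 80 reads were methylated in Ring1B -/-, 2 of 77 in Eed -/- and 6 of 95 in Ezh2 -/-. With shorter matches allowed Twist1 joined it, with 15.9% in Fbxl10 T/T and 2.70% in WT, a difference under the threshold. The part of feeder DNA in the results at the 6 loci was not tested.

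In the Polycomb mutants no CpG of the 6 loci was called, at a depth that allowed few tests. Outside CCGG, 0 CpGs were tested in Ring1B -/-, 6 in Eed -/- and 5 in Ezh2 -/-, and inside CCGG 4 in Ring1B -/-, 3 in Eed -/- and 1 in Ezh2 -/-. Over all CpGs tested outside CCGG, 0.685% were higher and 1.77% lower in Ring1B -/-, 0.287% and 0.949% in Eed -/-, and 0.185% and 1.73% in Ezh2 -/-. Inside CCGG the shares were 1.91% and 0.453% in Ring1B -/-, 0.878% and 0.298% in Eed -/-, and 0.995% and 0.663% in Ezh2 -/-.

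Summed reads gave more of the loci in these mutants. Where a window had 5 CpGs with any read, and 30 reads or more per library, 4 windows were tested in Ring1B -/-, 3 in Eed -/- and 4 in Ezh2 -/-, all at Sox2, Klf4 and Esrrb, and none was called. Over all windows 1.30% were higher and 0.554% lower in Ring1B -/-, 0.352% and 0.671% in Eed -/-, and 0.211% and 0.787% in Ezh2 -/-. The Sox2 window from 34549001 read 7.14% of 56 reads in Ring1B -/-, 3.75% of 80 in Eed -/- and 6.15% of 65 in Ezh2 -/-, while WT read 34 of 1173, 39 of 1425 and 34 of 1232 reads as methylated at the CpGs of each comparison. Only the Klf4 window from 55545001 in Ezh2 -/- had an adjusted p under 0.05, with 5 of 66 reads methylated in Ezh2 -/- and 12 of 1276 in WT (adjusted p = 0.0177, Fisher's exact test), and its difference of 6.64 points was under the 20 required.

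The CpGs outside CCGG deep enough to test in a Polycomb mutant lay mostly where Fbxl10 T/T had gained. At 1058 bases before the Sox2 start, 28 of 55 reads were methylated in Fbxl10 T/T, 0 of 12 in Eed -/-, 0 of 13 in Ezh2 -/- and 2 of 121 in WT. At 869 to 883 bases after the downstream start of Esrrb, the 4 CpGs outside CCGG had 0 to 1 methylated reads of 13 to 17 in Eed -/- and 1 to 3 of 13 in Ezh2 -/-, while WT read 4.17% to 9.59%. On the far flank of Sox2, at 6683 bases, 1 of 10 reads was methylated in Eed -/-, 1 of 6 in Ezh2 -/- and 94 of 176 in WT, which was not a call in Eed -/- (adjusted p = 0.220, Fisher's exact test). At Zfp42 the Ring1B -/- library also read low outside CCGG, with 2 of 18 reads methylated over 7 CpGs (3.10 to 32.8%), against 49.0% in WT (43.1 to 55.1%), and no single CpG there had the reads for a test. Pou5f1 outside CCGG had 0 of 3 methylated reads in Ring1B -/-, 0 of 7 in Eed -/- and 0 of 2 in Ezh2 -/-, so its level could not be measured in these mutants.

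The 52 CpGs outside CCGG with a read in all 5 libraries put the genotypes side by side at the same sites. They read 32.4% in Fbxl10 T/T (30.5 to 34.4%), 4.98% in Ring1B -/- (2.87 to 8.50%), 1.56% in Eed -/- (0.607 to 3.93%), 6.59% in Ezh2 -/- (4.15 to 10.3%) and 5.36% in WT (4.73 to 6.08%). At the 21 CpGs of Sox2 among them, Fbxl10 T/T read 53.7%, Ring1B -/- and Ezh2 -/- 4.76% each, Eed -/- 2.83% and WT 2.76%. At the 11 CpGs of Esrrb, Fbxl10 T/T read 58.3%, Ring1B -/- 7.02%, Eed -/- 1.14%, Ezh2 -/- 11.2% and WT 13.5%. Over the 18 Esrrb CpGs with a read in Ring1B -/- and WT, Ring1B -/- read lower, at 5.97% of 67 reads (2.35 to 14.4%). WT read 16.6% of 1179 there (14.6 to 18.9%). With a minimum of 5 reads, 7 CpGs were left and the difference was -4.47 points, against -10.7. For Eed -/- at Esrrb the direction depended on the weighting. Over the 24 CpGs with a read in both libraries, 8.91% of 101 reads were methylated in Eed -/- and 14.9% of 989 in WT. The mean over the same CpGs was 33.6% in Eed -/- (standard deviation 48.0 points) and 16.7% in WT. That mean gives a CpG with 1 read the same weight as a deeply read one. At the Esrrb stretch printed above, the 5 CpGs outside CCGG had only 5 Eed -/- reads, all methylated. At the 18 CpGs of Klf4, Fbxl10 T/T read 1.18%, Ring1B -/- 4.26%, Eed -/- 0%, Ezh2 -/- 4.0% and WT 3.09%. Eed -/- had 57 reads at these Klf4 CpGs, so 0% allows up to 6.31% by its interval.

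Inside CCGG at Sox2, the intervals of Ring1B -/- and Eed -/- lay above that of WT, and the interval of Ezh2 -/- overlapped it. Over 17 CpGs with a read in all 5 libraries, the levels were 58.9% in Fbxl10 T/T (54.8 to 62.8%), 40.8% in Ring1B -/- (30.2 to 52.5%), 44.3% in Eed -/- (34.4 to 54.7%), 32.9% in Ezh2 -/- (23.2 to 44.3%) and 22.6% in WT (20.5 to 24.9%). At the 21 Sox2 CpGs outside CCGG with a read in all 5 libraries, the intervals of all 3 Polycomb mutants overlapped that of WT. Over the 28 with a read in both Ring1B -/- and WT, these 2 intervals lay apart. There Ring1B -/- read 7.14% of 112 reads (3.66 to 13.5%) and WT 2.56% of 1914 (1.94 to 3.37%). With a minimum of 5 reads, 9 CpGs were left and the difference was 0.563 points, against 4.58. Over all tested CpGs inside CCGG the median difference from WT was 7.62 points in Ring1B -/-, 6.92 in Eed -/- and 5.30 in Ezh2 -/-, and the part of this shift in the Sox2 values was not tested. At Nanog the CpG at 122658109 had 33 of 46 methylated reads in Fbxl10 T/T, 0 of 2 in Ring1B -/-, 0 of 5 in Eed -/-, 0 of 9 in Ezh2 -/- and 15 of 64 in WT.

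**Figure D4:**
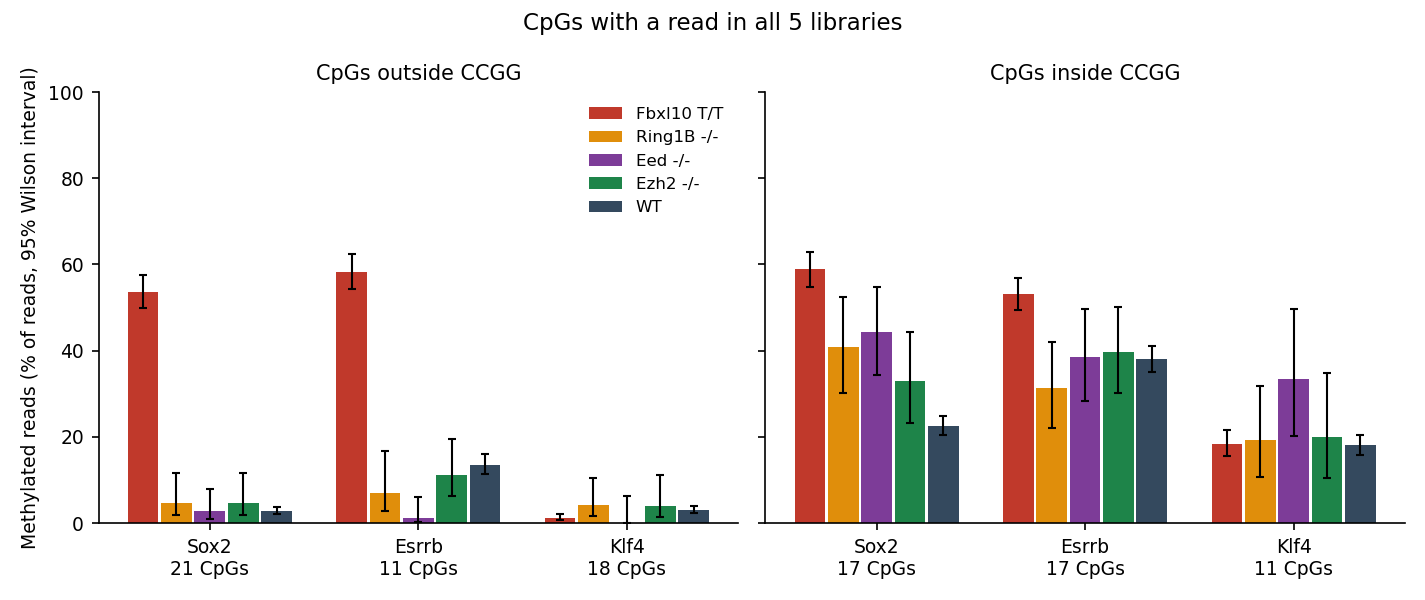
Share of methylated reads (%) at the CpGs of Sox2, Esrrb and Klf4 that have a read in all 5 libraries, outside CCGG (left) and inside CCGG (right). Bars are single libraries and error bars 95% Wilson intervals. Outside CCGG the Fbxl10 T/T bars of Sox2 and Esrrb stand at 53.7% and 58.3%, and no bar of another genotype passes 13.5%.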

How the data were processed

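DNA methylation was taken from 5 tables of cytosines, 1 per genotype. Per the submitters' processing notes, BSMAP 2.74 and mm9 were used, and other read processing steps are not given in the sources used here. The deposited counts are reads showing C and reads showing C or T at each cytosine, and the deposited expected counts are the latter as adjusted by the authors for variants read on the opposite strand. The deposited fraction is the reads showing C over these expected counts, per the file headers, and was not used for the tests. CpGs were the rows of the + strand whose 5-base context has G after the central C, and were divided by CCGG.

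Levels are summed reads with 95% Wilson intervals, or means over CpGs for windows and promoters. Tests (scipy 1.17.1) ran over all CpGs, windows or promoters of the autosomes and the X chromosome. No mm9 annotation was used here. Starts were found by matching RefSeq promoter sequences to the contexts of the tables, with at least 60 known bases and at most 2% mismatches, or, for the shorter matches, at least 30 known bases without mismatch, or 15 within the 6 ranges. All 6 members are named, with the largest called rise and fall of each and every tested window. Of the listed genes, each called promoter is named. The members and lists were chosen with earlier results of these data known. Alternatives covered the minimum of reads, the count used, the thresholds, the weighting and the regions. No sample was left out.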

Additional observations from a re-analysis of the deposited data

How the results depend on the processing

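No paired analysis was possible because each genotype has 1 library and the labels give no replicate numbers. The rise at Sox2, at Esrrb and in the Sox2 promoter region and the low level of Klf4 kept their direction under each alternative run. Reads limit the tests: with a minimum of 20 reads, 36 of 107 CpGs outside CCGG rose in Fbxl10 T/T, 3 of 6 windows were higher, and the level of the 6 loci together differed by 17.9 points, against 19.8. With a threshold of 10 points, 1 CpG outside CCGG, at Klf4, was lower in Fbxl10 T/T. As a mean over CpGs, Esrrb differed by 34.2 points, against 39.0. At CpGs with a read in all 5 libraries, a choice made after the data were seen, the difference was 44.8 points at Esrrb, 27.0 over the 6 loci and -1.24 at the single Zfp42 CpG left, against 19.6. In the Polycomb mutants the 6 loci together differed from WT by -4.19 points in Ring1B -/- as a mean over CpGs, against -1.69, and in Eed -/- by 2.81 points as a mean over CpGs and -6.98 with a minimum of 5 reads, against -2.33. With shorter promoter matches, 2 member promoters were higher in place of 1. The causes of these shifts were not tested.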
